A study of Arabidopsis thaliana with 6 samples.

Results

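The probe sets described here are those of 1 run of 125 consecutive identifiers, which ends with the probe set of atpF, on the Affymetrix ATH1 array of Arabidopsis thaliana. The run was chosen by its numbers alone, as the stretch of the array made for the plastid and mitochondrial genomes, and the array holds 22810 probe sets in all. The platform's probe table gave the symbol of a plastid gene for 72 of them and of a mitochondrial gene for 12. A locus on chromosome 2 was listed for 5, several genes for 1 (244944_s_at, listed as rps3 and rpl16), and no gene for the other 35. The plastid probe sets stand for 71 genes, because rps12 has 2 probe sets. Hence 84 of the 125 probe sets fit the label of organelle genes by the table, and the 41 others are given by their number and were not called organelle genes. The run is also not complete, as 5 plastid probe sets (atpH, psbA, matK, rps16 and psbK) and 11 mitochondrial ones (for nad1, nad2, nad5 and cox1) lie elsewhere in the numbering.

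RNA was taken from mixed floral buds, up to stage 13, of 42-day-old Col-0 plants grown with 12 h of light and 12 h of dark. The atyak1-1 mutant, the atyak1-2 mutant and the wild type each gave 2 biological replicates, with 1 array per replicate and 6 arrays in all. The study's title links AtYAK1, which belongs to the DYRK protein kinases, to how pollen develops. The labels do not describe the lesions of the alleles, and AtYAK1 itself was not analysed here, so that the genotype labels were not checked against its level.

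Chloroplasts and the other plastids of plant cells keep a small genome of their own, which encodes core subunits of the photosystems, the cytochrome b6f complex, the ATP synthase and the NDH complex, the large subunit of Rubisco, part of the plastid ribosome and a bacterial-type RNA polymerase. Many plastid genes lie in clusters that are transcribed together and then cut and trimmed into smaller RNAs, and a nuclear-encoded, phage-type polymerase shares the work of transcription. The mitochondrial genome encodes subunits of the respiratory chain and factors of cytochrome c maturation. Mitochondria multiply in the tapetum and in developing pollen, and anthers are known for their dependence on mitochondrial gene function, since many forms of cytoplasmic male sterility map to the mitochondrial genome. Organelle mRNA mostly lacks the long poly(A) tail of nuclear mRNA, and the labels do not say how the labelled target was primed, so the signals here are read only between arrays for 1 probe set at a time and never as amounts of RNA of different genes.

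Levels are linear MAS5 signals, which had been brought to 1 brightness on all arrays. Differences are log2 differences with their standard error from limma. A probe set passed when its adjusted p (Benjamini-Hochberg over all 15164 probe sets tested) was below 0.05. A filter on dim probe sets, which used no genotype, kept 88 of the 125: 68 plastid, 7 mitochondrial, 4 with a chromosome 2 locus, 8 with no gene listed, and 244944_s_at. The geometric mean signal over the 6 arrays was between 27.9 and 19200 for the 72 plastid probe sets, with a median of 2700, and 47 of them lay over 1000. For the 12 mitochondrial probe sets it was between 9.46 and 526, with a median of 108. Where no gene was listed the median was 25, and only 244979_at and 244981_at were over 1000. The plastid probe sets left out as too dim were ycf2, ndhB, ndhF and rps14, and the mitochondrial ones were ccb203, nad7, matR, ccb206 and nad6.

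In atyak1 buds, no plastid or mitochondrial gene of the run passed the threshold when the replicate number was left out of the fit. With a replicate block, 5 plastid genes (rpl36, cemA, atpF, ycf4 and rpl14) passed for both alleles together, all higher in the mutants, and their values follow further on. In the fit without the block, with the mean of both alleles set against the wild type, 0 of the 88 probe sets passed by limma, where 1.93% of all probe sets tested did, and the smallest adjusted p among them was 0.13. At an unadjusted p below 0.05 there were 16 of 88, or 18.2%, which is near the 17.0% of all probe sets. The plastid values leaned upward by little: their median log2 difference was 0.19, against 0.09 for all probe sets tested, and 58 of 68 lay above 0, which is 85.3% against 64.5%. The mitochondrial median was 0.01, with 4 of 7 above 0, and it ranged from -0.09 to 0.05 with 1 array left out in turn. All 15 plastid probe sets with an unadjusted p below 0.05 were higher in the mutants, 22.1% of 68, where 9.5% of all probe sets tested were higher at that level. Genes of 1 genome share promoters and transcripts and are no replicates, so these counts and medians only describe the group.

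The same lean was seen in the medians of the arrays. The median signal of the 68 plastid probe sets was 2830 and 3410 in atyak1-1, 3200 and 3560 in atyak1-2, and 2630 and 2780 in the wild type. By this median all 4 mutant arrays lay above both wild-type arrays, the lowest of them by a small margin. By the mean log2 signal, atyak1-1 replicate 1 at 10.88 lay below wild-type replicate 2 at 10.93. The other mutant arrays lay above both wild-type arrays by that mean too. Within replicate 1 the plastid median difference was 0.19 and within replicate 2 it was 0.23, while the spread between replicates of an array's median log2 signal had an SD of 0.13. For the 7 mitochondrial probe sets the median signal was 191 and 162 in atyak1-1, 241 and 180 in atyak1-2, and 180 and 201 in the wild type, with full overlap of the groups. Every mutant array lay above both wild-type arrays for 17 of the 88 probe sets, all of them plastid. That is 19.3%, against 21.3% of all probe sets tested. The opposite order held for 2 of 88, or 2.27%, against 11.1%.

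Markers of late pollen moved with the genotype. Of 13 late pollen genes listed, 5 were tested. All 5 were lower in the mutants, with log2 differences from -5.36 to -1.56. Of the 5, 4 passed by limma, where 1.93% of all probe sets tested did. The summed signal of the 8 probe sets listed lay between 356.4 and 470.7 on the mutant arrays, against 3057 and 3206 on the wild-type arrays. In whole buds, fewer cells of a type and less RNA per cell cannot be told apart. The part of the pollen difference in the plastid values was not tested. None of the 8 floral organ identity genes listed had a named probe set, so the tissue label was checked only by the pollen markers and by 2 genes of the tapetum, the nurse layer of the anther, which are given with the replicate values.

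By role, the subunits of the NDH complex, which carries electrons back to the plastoquinone pool around photosystem I, stood highest among the groups with several members. Of its 11 probe sets 9 were tested, and their median log2 difference was 0.32 (range -0.13 to 0.64). Of the 9, 8 were above 0, and for 5 all 4 mutant arrays lay above the wild type, but 0 passed. Over all probe sets tested 64.5% were above 0, and for 21.3% all mutant arrays lay above the wild type. The gene with the highest value was ndhH, with signals of 227.2 and 299 in atyak1-1, 286.2 and 285.9 in atyak1-2, and 201.1 and 151.7 in the wild type. The groups did not overlap, and the wild-type arrays were the lowest pair. Its log2 difference was 0.64 ± 0.19 with an adjusted p of 0.18 by limma, and of 0.081 with the replicate number as a block. Next to it in the group, ndhA measured 2074 and 2706 in atyak1-1, 2035 and 3245 in atyak1-2, and 1732 and 1854 in the wild type, a difference of 0.46 ± 0.21 (limma adjusted p = 0.32). For the brighter ndhI the values were 8014 and 9164 in atyak1-1, 10088 and 9004.5 in atyak1-2, and 7158 and 7226 in the wild type. The wild-type arrays were nearly alike and lay below all the mutant arrays, and the difference was 0.33 ± 0.10 (limma adjusted p = 0.19). The exception was ndhE at -0.13 ± 0.32, which is described with the replicate values.

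The smallest adjusted p-values fell on neighbouring genes of 1 stretch of the plastid genome. The gene ycf4, whose product helps to assemble photosystem I, had signals of 3414 and 3806 in atyak1-1, 3819 and 5156 in atyak1-2, and 2972 and 2536 in the wild type, a log2 difference of 0.54 ± 0.15 with a limma adjusted p of 0.16. Its downstream neighbour cemA, for a protein of the chloroplast envelope, had 6487 and 6494 in atyak1-1, 6973 and 8602 in atyak1-2, and 5013 and 5442 in the wild type. It differed by 0.44 ± 0.11, and petA, for cytochrome f, by 0.35 ± 0.09, both with a limma adjusted p of 0.13. The signals of petA were 7196 and 6868 in atyak1-1, 7546 and 8249 in atyak1-2, and 5985 and 5669 in the wild type. In all 3 genes the mutant arrays lay above both wild-type arrays, with the second atyak1-2 array the highest. Of the other genes of the same stretch, psaI, a small photosystem I subunit, was at 0.06 ± 0.17 and accD, a subunit of acetyl-CoA carboxylase, at 0.26 ± 0.14; differences between genes were not tested. The reaction centre gene psaA, picked after its values were seen, had 1357 and 1522 in atyak1-1, 1968 and 1702 in atyak1-2, and 1228 and 1200 in the wild type, which gave 0.42 ± 0.12 (limma adjusted p = 0.17), while psaB, cotranscribed with it, was at 0.10 ± 0.15.

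The remaining photosynthetic groups lay closer to the median of all probe sets. The photosystem II group had 13 tested probe sets with a median of 0.18 (range -0.07 to 0.34). The photosystem I group had 7 with 0.19 (-0.02 to 0.54). It also held ycf3 and ycf4, which are not subunits, and the 0.54 was that of ycf4, while psaA stood at 0.42. The cytochrome b6f group had 7 with 0.06 (-0.15 to 0.35), among them ccsA at 0.11, which is not a subunit of that complex. For the ATP synthase, 5 were tested with a median of 0.17 (0.08 to 0.49). Its highest value was that of atpF, a stalk subunit, with 2409.8 and 3573 in atyak1-1, 3036 and 3469.6 in atyak1-2, and 2119.8 and 2279 in the wild type (0.49 ± 0.17, limma adjusted p = 0.23). The lowest atpF mutant array was only a little above the wild type, and the other mutant arrays stood clear of it. The catalytic subunit gene atpB was far steadier, at 17359 and 16171 in atyak1-1, 17988 and 17937 in atyak1-2, and 15455 and 17477 in the wild type, with overlapping groups and a difference of 0.08 ± 0.09.

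The brightest plastid probe sets differed little between genotypes. The probe set of psbM, a small photosystem II subunit, read 19758 and 17879 in atyak1-1, 20288 and 17887 in atyak1-2, and 18203 and 21742 in the wild type (-0.07 ± 0.11). The gene for cytochrome b6, petB, had 11235 and 11283 in atyak1-1, 11225 and 12375 in atyak1-2, and 11375 and 11582 in the wild type, a difference of 0.01 ± 0.09. Both genes had overlapping groups. Whether such bright probe sets were saturated was not analysed here. The gene of the large Rubisco subunit, rbcL, measured 404.4 and 656.2 in atyak1-1, 568.3 and 697.1 in atyak1-2, and 516.9 and 611.1 in the wild type, with a difference of 0.02 ± 0.22. The wild-type arrays lay within the range of the mutant arrays.

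Among the genes of plastid gene expression, the 4 subunits of the plastid-encoded RNA polymerase had a median of 0.22, with values between 0.00 and 0.54. The probe set of rpoC2 had 711 and 906 in atyak1-1, 719.9 and 876 in atyak1-2, and 603 and 499 in the wild type, with no overlap of the groups (0.54 ± 0.17, limma adjusted p = 0.19). The first gene of the same transcript, rpoB, stood at 0.00 ± 0.25. Its geometric mean signal of 91.28 was near the limit of the filter on dim probe sets, and differences between genes were not tested. For the plastid ribosome 18 of 19 probe sets were tested, and their median was 0.17 (range -0.05 to 0.45) with 16 above 0. The 4 tested genes with other roles had a median of 0.26 (range 0.18 to 0.44).

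The replicate number was also fitted as a block, because samples with the same number deviated together. In that fit 6 of the 88 probe sets passed by limma, all higher in the mutants. They make 6.82% of the 88, against 7.59% of all probe sets tested that passed in either direction and 2.8% that passed as higher. The 6 were cemA (adjusted p = 0.033), atpF (0.045), ycf4 (0.049), the ribosomal protein genes rpl36 (0.027) and rpl14 (0.049), and 244981_at (0.047), which has no gene listed. Signals for rpl36, picked after its values were seen, were 4299 and 5887 in atyak1-1, 4337 and 5909 in atyak1-2, and 2938 and 4617 in the wild type. Each mutant array of rpl36 lay above the wild-type array of its own number, while the groups as wholes overlapped, and the difference was 0.45 ± 0.23 without the block.

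Each allele was also set against the same wild-type arrays, so the 2 comparisons are not independent. In atyak1-1 no probe set of the run passed by limma (0 of 88, against 1.06% of all), the median plastid log2 difference was 0.10 and 51 of 68 were above 0. In atyak1-2 again 0 of 88 passed (0.963% of all), but the plastid median was 0.27 and 64 of 68 were above 0. At an unadjusted p below 0.05 there were 5 members in atyak1-1, where 14.1% of all probe sets were at that level, and 18 in atyak1-2, where 12.3% were. These medians rested on single arrays. The atyak1-1 median was 0.22 without atyak1-1 replicate 1, 0.06 without atyak1-1 replicate 2, 0.03 without wild-type replicate 1 and 0.19 without wild-type replicate 2. The atyak1-2 median was 0.41 without atyak1-2 replicate 1 and 0.16 without atyak1-2 replicate 2. With the replicate block 0 passed in atyak1-1 (5.2% of all) and 4 in atyak1-2 (3.95% of all), namely 244981_at (adjusted p = 0.048), rpl14 (0.048), psaA (0.049) and cemA (0.031) by limma.

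With atyak1-2 set directly against atyak1-1, 0 of 88 probe sets passed by limma, as did 0.0% of all probe sets, with 4 of 88 at an unadjusted p below 0.05 against 0.996% of all. The median of atyak1-2 minus atyak1-1 was 0.13 over the plastid probe sets, with 61 of 68 above 0, and 0.25 over the mitochondrial ones, with 6 of 7 above 0. The plastid median was 0.24 and 0.03 when the replicate 1 or the replicate 2 array of atyak1-2 was left out, and 0.07 and 0.25 when that of atyak1-1 was. The mitochondrial median was 0.14 and 0.45 for the arrays of atyak1-2 in the same order, and 0.29 and 0.13 for those of atyak1-1. The most uneven gene was atpI, for a membrane subunit of the ATP synthase, at 169.8 and 141.5 in atyak1-2, 88.9 and 111.3 in atyak1-1, and 93.6 and 100 in the wild type. Both atyak1-2 arrays stood above the other arrays, and the difference between the alleles was 0.64 ± 0.25 (limma adjusted p = 1.0). For petN, a small cytochrome b6f subunit, the allele difference was 0.59 ± 0.27, and for ndhE it was 0.58 ± 0.37.

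No mitochondrial gene of the run passed in any comparison of genotypes. The 3 tested subunits of complex I, which takes electrons from NADH, had a median log2 difference of 0.01. For nad4 the signals were 454.5 and 561.9 in atyak1-1, 549.4 and 587 in atyak1-2, and 500.6 and 516.7 in the wild type (0.07 ± 0.14), and nad9 was at 0.01 ± 0.19 and nad4L at -0.12 ± 0.28. The gene ccb382, now called ccmFN1, acts in cytochrome c maturation, where heme is joined to the protein. It read 469.7 and 410.9 in atyak1-1, 455.5 and 405.7 in atyak1-2, and 454.9 and 408.6 in the wild type. The 3 genotypes were nearly the same for it within each replicate number, and the difference was 0.01 ± 0.14.

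Its partner ccb452, now ccmFC, was the mitochondrial gene with the lowest value. Its signals were 282.8 and 249.7 in atyak1-1, 369.2 and 292.4 in atyak1-2, and 414.8 and 377 in the wild type. All 4 mutant arrays lay below both wild-type arrays, atyak1-1 farther than atyak1-2, but the difference of -0.42 ± 0.16 did not pass (limma adjusted p = 0.25, and 0.098 with the replicate block). The gene of a cytochrome oxidase subunit, cox2, was at -0.24 ± 0.24. The transport gene orfX, now mttB, had the highest value, 0.29 ± 0.24, with 120.9 and 132.1 in atyak1-1, 179.3 and 144.6 in atyak1-2, and 95.1 and 143.8 in the wild type, where the groups overlapped.

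Nuclear genes whose products work in the same organelles were read from lists. They were matched only through the probe table, so genes without a named probe set may still be on the array. For photosynthesis 6 of 40 listed genes had a named probe set, all 6 were tested, 0 passed, and their median log2 difference was 0.04 (range -0.02 to 0.14). For mitochondrial proteins 9 of 26 listed genes were tested, all 9 were below 0, the median was -0.14, and 1 fell by the test. That gene was CYTC-2, for cytochrome c, the electron carrier between complexes III and IV that needs heme attached to it. Its signals were 818.2 and 868.3 in atyak1-1, 1037 and 1074 in atyak1-2, and 1488 and 1880 in the wild type. The groups did not overlap, the difference was -0.83 ± 0.13 and the adjusted p was 0.035 by limma. The other cytochrome c gene listed, CYTC-1, did not pass, at -0.04 ± 0.13 (limma adjusted p = 0.9). A subunit gene of complex II, SDH1-1, was at -0.48 ± 0.11 (adjusted p = 0.093, and 0.03 with the replicate block). Of 14 genes listed as partners of plastid transcription only RPOTmp, a phage-type RNA polymerase, had a named probe set. It was at 0.88 ± 0.32 (limma adjusted p = 0.24), with a wild-type array of 65.1 beside 1 of 140.9.

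The organelle probe sets numbered outside the run gave no call either. Of the 5 plastid ones all were tested with a median of 0.29, and of the 11 mitochondrial ones 6 were tested with a median of -0.15. Most of these 6 were for nad1, and they ran from -0.66 to -0.05, while nad5 was at 0.06 ± 0.34. The gene cox1 went up, at 0.46 ± 0.13 (limma adjusted p = 0.17), with all its mutant arrays above the wild type. At the edge of the run, atpF, its last member, can be set beside atpH, the gene just before it in the same transcript. The gene atpH is not a member and was at 0.29 ± 0.23. The photosystem II gene psbA, also outside, went the other way from most plastid genes, at 1226 and 1259 in atyak1-1, 1206 and 1394 in atyak1-2, and 1551 and 1773 in the wild type. All its mutant arrays lay below the wild type, and the difference was -0.39 ± 0.12 (limma adjusted p = 0.20).

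The spread of values within a cluster of plastid genes varied from cluster to cluster, and differences between genes were not tested. The 11 clusters were taken from the known order of plastid genes. In the cluster psbB-psbT-psbH-petB-petD the 5 log2 differences between both alleles and the wild type ran from -0.15 to 0.30 with a median of -0.01. In ndhC-ndhK-ndhJ they ran only from 0.31 to 0.42, and in psbE-psbF-psbL-psbJ from 0.18 to 0.34. In the long cluster that begins with ndhH and ends with ndhD the 7 values ran from -0.13 for ndhE to 0.64 for ndhH. The atpB-atpE pair was at 0.08 and 0.09, and the 9 tested genes of the rpl23 cluster of ribosomal proteins ran from -0.03 to 0.45.

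In the fit with the replicate block, more probe sets of the run passed between the replicate numbers than between both alleles and the wild type, 12 against 6. Over all probe sets tested the order was the opposite, 3.72% against 7.59%. On the replicate 2 arrays 12 of the 88 probe sets were higher than on the replicate 1 arrays by limma, with genotype in the fit, and 0 were lower. That is 13.6%, where 1.04% of all probe sets tested were higher, 2.68% were lower and 3.72% passed in either direction. Values on each number are given for atyak1-1, atyak1-2 and the wild type in that order. This comparison was chosen after the data were seen. The titles give the numbers, and what else the arrays of 1 number share is not stated. Of the 12, 10 were plastid (14.7% of 68), 1 was 244944_s_at and 1 was 244981_at, and none of the 7 mitochondrial probe sets passed (smallest adjusted p = 0.33).

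The gene that differed most was petL, for a small subunit of the cytochrome b6f complex. Its signals on replicate 2 were 1552 in atyak1-1, 1743 in atyak1-2 and 1559 in the wild type, against 713.2, 747.7 and 705.2 on replicate 1. The genotypes were nearly alike within each number, and the numbers did not overlap. The log2 difference was 1.16 ± 0.10, or 2.24-fold (limma adjusted p = 0.0014).

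Ribosomal protein genes made up 5 of the 10 plastid calls, and 18 of the 68 plastid probe sets tested were of that group. For rpl20 the replicate 2 signals were 886.9 in atyak1-1, 899.7 in atyak1-2 and 793.7 in the wild type, against 314.4, 448.2 and 453.5 on replicate 1, a 2.15-fold difference (log2 1.1 ± 0.15, limma adjusted p = 0.0083). For rpl14 the replicate 2 signals were 2248 in atyak1-1, 2486 in atyak1-2 and 1785 in the wild type, against 1065, 1349 and 893.7 on replicate 1, or 1.98-fold (0.99 ± 0.10, adjusted p = 0.0026). For rps15, picked after its values were seen like the other genes of this group below, the replicate 2 signals were 1079.9 in atyak1-1, 1304 in atyak1-2 and 1123 in the wild type, against 619, 710.3 and 554.7 on replicate 1 (0.90 ± 0.11, adjusted p = 0.0048). In these 3 genes every replicate 2 array lay above every replicate 1 array. The other ribosomal calls were smaller, with rpl36 at 0.52 ± 0.09 (limma adjusted p = 0.022) and rpl16 at 0.49 ± 0.10 (0.035).

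Single genes of other complexes completed the set. The photosystem I subunit gene psaJ had 10917 in atyak1-1, 11576 in atyak1-2 and 11401 in the wild type on replicate 2, against 6834, 6237 and 6600 on replicate 1 (0.79 ± 0.09, limma adjusted p = 0.0037). For ndhE the replicate 2 signals were 511 in atyak1-1, 823.8 in atyak1-2 and 699 in the wild type, against 329, 453.4 and 428.2 on replicate 1 (0.73 ± 0.11, adjusted p = 0.015). Within each genotype ndhE was higher on replicate 2, and atyak1-1 was the lowest genotype on both numbers. The polymerase gene rpoC1 was at 0.48 ± 0.10 (limma adjusted p = 0.046), and psbE, for a cytochrome b559 subunit and also picked after its values were seen, was at 0.42 ± 0.09 (0.045). The unlisted 244981_at was at 0.75 ± 0.11 (adjusted p = 0.012) and 244944_s_at at 0.58 ± 0.11 (0.026).

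Some of these genes lie side by side and others have neighbours that were not called. The probe sets of rpl36, 244981_at, rpl14 and rpl16 follow each other in the numbering, and all 4 passed. The genes petL and psaJ lie beside petG, which was at 0.44 on the log2 scale (limma adjusted p = 0.091), and rpl33 and rps18, at 0.06 and 0.09, lie between psaJ and rpl20. In the rpl23 cluster the replicate differences ran from -0.10 to 0.99 with 3 called of 9, and in the cluster from ndhH to ndhD from -0.44 to 0.73 with 1 called of 7. Over all 68 plastid probe sets the median was 0.12, against 0.00 for all probe sets tested, and over the mitochondrial ones it was -0.17. Replicate 2 lay above replicate 1 in all 3 genotypes for 34 of 88 probe sets, or 38.6%, against 20.8% of all, and below it for 9, or 10.2%, against 20.8%. Of these 9, 4 were among the 7 mitochondrial probe sets.

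Other signals moved with the replicate number. The tapetum genes AMS, a transcription factor, and A9, a secreted protein, passed in the same direction, at 0.64 ± 0.11 (limma adjusted p = 0.022) and 0.63 ± 0.14 (0.045). Their summed signal on replicate 2 was 4750 in atyak1-1, 3846 in atyak1-2 and 4413 in the wild type, against 3040, 3044 and 2319 on replicate 1. These were the 2 of 6 listed tapetum genes with a named probe set. The ratio of the 3' to the 5' actin probe set, a measure of RNA integrity, was 1.43 in atyak1-1, 1.53 in atyak1-2 and 1.58 in the wild type on replicate 2, against 1.56, 1.68 and 1.91 on replicate 1. The signal of the 25S rRNA probe set was 250 in atyak1-1, 220 in atyak1-2 and 239 in the wild type on replicate 2, against 236, 164 and 141 on replicate 1. The tapetum and 25S signals were thus higher, and the actin ratio lower, on replicate 2 in each genotype. The 5S rRNA signal was lower on replicate 2 in each genotype, and the GAPDH ratio had no single direction. Nuclear photosynthesis genes had a replicate median of 0.03 with 0 of 6 called. The part of these differences in the plastid result was not tested.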

How the data were processed

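The authors deposited 1 table of MAS5 signal, an intensity on a linear scale, for 6 ATH1 arrays of atyak1-1, atyak1-2 and wild-type buds; per the submitters' processing notes the tools were GCOS and MAS5, whose versions are not given. The mean after trimming 2% at each end was 500.04 on every array, so that the arrays had been scaled to 1 level. The build and the order of steps are not given in the sources used here. Detection calls were not used. The number of arrays limits the precision.

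Samples were grouped by the genotype in their labels. Signals were taken to log2 without a pseudocount. Of 22746 probe sets that are not controls (64 are), the third with the lowest mean was left out, which kept 15164 with a geometric mean of at least 73.6. The limma 3.58.1 model (R 4.3.3) had a mean for each genotype over the 6 arrays and a variance trend, with 3 residual and 3.84 prior degrees of freedom. Wild-type means were subtracted from the mean of both alleles and from each allele, and atyak1-1 from atyak1-2, with p-values adjusted by Benjamini-Hochberg over the 15164. The replicate 2 minus replicate 1 contrast is the block coefficient of the fit with the replicate number (2 residual and 6.22 prior degrees of freedom). Samples with the same number deviated together. The correlations were 0.61 between the alleles, 0.25 between atyak1-1 and the wild type and 0.35 between atyak1-2 and the wild type. Same-numbered samples were therefore treated as pairs, but only in the fits with the replicate block. Genotype values are from the fit without the block unless stated. The pairing comes from the titles and these correlations alone, which are weak evidence with 2 replicates. The fit without the block was also run on simulated data with 50 changed probe sets of each size. Between both alleles and the wild type it recovered 2% of changes of 0.5 on the log2 scale, 38% of changes of 1 and 90% of changes of 2. The tested members ran from -0.42 to 0.64 in that comparison, so true differences of their size would mostly be missed.

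Genes were taken from the platform's probe table, in which 13523 probe sets had 1 symbol, 493 several and 8794 none; mitochondrial symbols were matched to current names. The genes named were, per genome, the 5 highest and 5 lowest differences, the 3 brightest, the 3 largest replicate differences and the 3 largest allele differences, then the 2 brightest of each role, the called members and up to 3 genes of each nuclear list; others are said to have been picked after their values were seen, and further members are named as parts of a role or cluster. The members and lists were chosen with earlier results of these data known. Alternatives were each array left out in turn, the replicate block, array weights, quantile normalization, log2(signal + 32), no filter or a stricter one, centring on all or on the other probe sets, no variance trend, and separate fits per pair of groups. Tables were made with pandas 2.3.3 in Python 3.11.15.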

Additional observations from a re-analysis of the deposited data

Results flagged for a closer look

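For psbB, a core antenna gene of photosystem II in the plastid genome, the alleles lay on opposite sides of the wild type. Its signals were 1110 and 1094 in atyak1-2, 770.2 and 926 in atyak1-1, and 1001 and 946.7 in the wild type. Both atyak1-2 arrays were above both wild-type arrays and both atyak1-1 arrays were below them. The log2 difference of atyak1-2 minus atyak1-1 was 0.38 ± 0.15, with an unadjusted p of 0.035 and an adjusted p of 1.0 by limma, so it did not pass.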

How the results depend on the processing

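The count of calls is over all tested probe sets of the run, with or without an organelle gene listed. Between both alleles and the wild type it was 0 in the fit without the block and under each alternative other than the following. It was 6 with the replicate block, and 1 without atyak1-1 replicate 1 (atpF, adjusted p = 0.044 by limma); over the arrays left out in turn it ranged from 0 to 1. For atyak1-2 it was 4 with the replicate block. The count of nuclear genes of organelle proteins, 1 (CYTC-2), was 2 with the block, 0 with the stricter filter, 0 without the variance trend, and from 0 to 1 over the arrays left out, with 0 when either atyak1-2 array or either wild-type array was left out. The plastid median of atyak1-2 against the wild type, 0.27, ranged from 0.16 to 0.41 over the arrays left out. That of atyak1-1, 0.10, ranged from 0.03 to 0.22, and the median of atyak1-2 minus atyak1-1 ranged from 0.03 to 0.25 for the plastid probe sets and from 0.13 to 0.45 for the mitochondrial ones. The 12 replicate calls were 5 without the variance trend and 4 without the atyak1-2 arrays, and from 8 to 17 in the other settings. Small differences changed sign: under quantile normalization petN was 0.01, ccb382 -0.01, petB -0.05 and rbcL -0.01. With 1 array left out in turn, the log2 difference of both alleles ranged for ndhE from -0.48 to 0.23, rpl20 from -0.45 to 0.35, psaJ from -0.41 to 0.38, petL from -0.51 to 0.64, rpl14 from -0.08 to 0.91, petN from -0.20 to 0.13, petB from -0.03 to 0.04, rbcL from -0.16 to 0.19, rpl23 from -0.12 to 0.07, psbT from -0.23 to 0.09, psbM from -0.20 to 0.06, psbF from -0.01 to 0.37, psaB from -0.10 to 0.29, rpoA from 0.00 to 0.46, atpE from -0.04 to 0.22, and atpB from -0.01 to 0.17. Among the mitochondrial genes it ranged for nad9 from -0.09 to 0.11, ccb382 from -0.07 to 0.09, nad4 from 0.00 to 0.15, nad4L from -0.36 to 0.12, orfX from -0.01 to 0.58 and cox2 from -0.51 to 0.02. The causes were not tested. The fit to only the groups compared gives no separate value for both alleles. The number of arrays, 2 for each genotype, limits the precision, and the median standard error was 0.15 for the plastid probe sets.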
